A study of Caenorhabditis elegans with 154 samples.

Results

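The last 5-fold increase in egg density of a dilution series, 100 against 20 eggs/µL, was examined in starved first-stage larvae (L1s) of *C. elegans*. The compared animals were chosen by the density and strain in their labels alone, and numbered 83, with 71 further single L1s in the rest of the series. At 100 eggs/µL there were 24 *fog-2* and 23 N2 animals, and at 20 eggs/µL there were 20 *fog-2* and 16 N2 animals. The 71 others were held at 1 or 5 eggs/µL. N2 is the wild-type strain. The *fog-2(q71)* strain is a mutant whose hermaphrodites make no sperm and which is therefore kept by mating males with females, so its L1s came from crosses while N2 L1s came from selfing. In all groups eggs were released from adults by bleaching, hatched without food in M9 buffer with polyethylene glycol, and collected 22 hr later, so starvation and bleaching were shared by both densities. Each animal gave its own RNA-Seq library, and the deposited values are TPM, the abundance of a transcript per length scaled to a fixed total in each animal. The labels do not say whether animals of 1 density came from 1 or several tubes, so p-values measure the spread between animals, and density and tube may not be separable.

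An L1 that hatches without food stops development and lives on stored nutrients until food appears. Worms release ascarosides, small molecules made of a sugar and a fatty-acid side chain that is shortened in peroxisomes, and some of these carry information on crowding. In the study, medium from crowded *daf-22* mutant L1s, which make no wild-type ascarosides, still repressed a *lips-15* reporter. The study concluded that ascarosides do not mediate that density effect. The outer surface of the larva is a cuticle of collagens, cuticlins and related proteins that is built before hatching and replaced at each molt.

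Across the 83 animals, 17560 of the 47639 transcript rows reached 1 TPM in at least 13 animals and were tested. The filter counted animals of both densities together. A row could thus enter through the 100 eggs/µL animals alone, and such a row could hardly come out lower. *col-128*, named below, reached 1 TPM in 10 of 24 *fog-2* and 4 of 23 N2 animals at 100 eggs/µL. At 20 eggs/µL it did so in 0 of 20 and 0 of 16. With strain as the only covariate, 878 rows were higher at 100 eggs/µL, 5.00% of the rows tested, and 33 were lower, 0.188%. Rows were tested in limma on log2(TPM + 1), letting the variance follow the mean, with Benjamini-Hochberg adjustment over all rows and a threshold of 0.05, and 3217 rows had an unadjusted p under 0.05. Fold changes are log2 values of 100 over 20 eggs/µL on that scale, where the added 1 makes changes of low transcripts look smaller. No animal lay past the planned limit of unlikeness to its group, and 2 N2 animals at 100 eggs/µL were lowest, with median rank correlations of 0.479 and 0.499 with their group against a median of 0.685 over the 83.

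The number of rows detected at 1 TPM or more also differed between the densities in *fog-2*. It was 13693.2 ± 2054.0 in *fog-2* at 100 eggs/µL (SD, n = 24) and 11164.6 ± 1421.3 at 20 eggs/µL (SD, n = 20), a difference of 2528.6 (two-sided permutation test with 100000 resamples, adjusted p = 8e-05 over 2 strains). In N2 it was 11208.8 ± 2200.9 at 100 eggs/µL (SD, n = 23) and 10599.5 ± 1401.4 at 20 eggs/µL (SD, n = 16), a difference of 609.3 (permutation test, adjusted p = 0.341). In *fog-2*, 16 of 24 animals at 100 eggs/µL had more detected rows than any animal at 20 eggs/µL, whereas in N2 this held for 4 of 23. Counted at 10 TPM or more, the *fog-2* difference was 456.5 rows (permutation test, adjusted p = 0.061). At 1 and 5 eggs/µL the mean numbers of rows at 1 TPM or more were 11190.9 and 11825.0 in *fog-2*, and 9983.2 and 10525.2 in N2. Read totals of the animals were not used here.

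**Figure D1:**
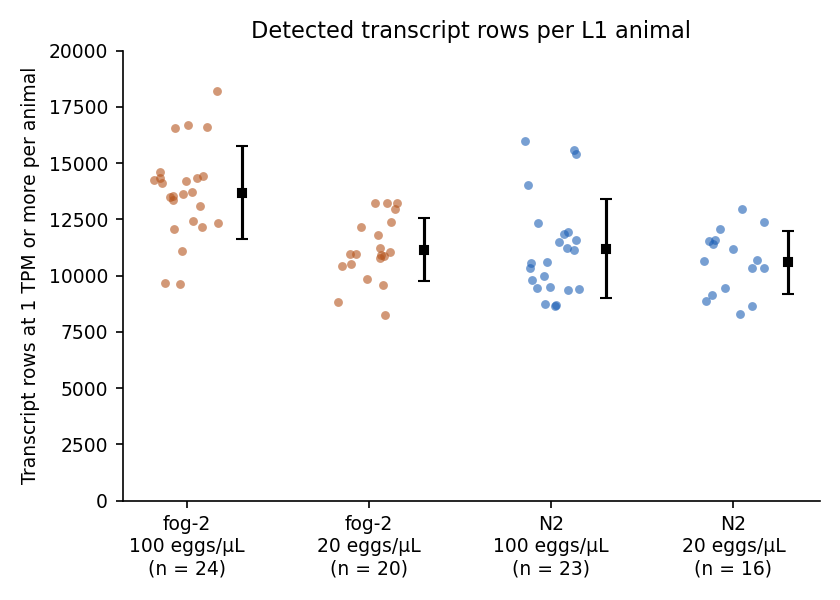
Number of transcript rows at 1 TPM or more in each L1 (points), by strain and density, with the mean and SD (black squares and bars) beside the points. The *fog-2* animals at 100 eggs/µL averaged 13693.2 rows against 11164.6 at 20 eggs/µL, while the N2 groups overlapped broadly.

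The comparison was therefore fitted again with each animal's detected rows as a covariate. Then 3 rows were higher at 100 eggs/µL, 0.0171% of those tested, and 8 were lower, 0.0456% (limma, 2197 rows at an unadjusted p under 0.05). The 3 higher rows and 5 of the 8 lower rows had also passed with strain alone, and all 878 higher and all 33 lower rows of the first fit kept their sign. The median change over all rows was 0.15 with strain alone and -0.06 with the covariate. The covariate removes whatever part of the density difference runs with the number of detected rows, and in *fog-2* it and density cannot be told apart. With the slope and spread taken from the animals of all 4 densities, 92 rows were higher and 84 lower. The animals' names carry a digit after the density, of unstated meaning, and without the animals of digit 1, 2 or 3 the strain-only counts were 7, 31 and 291 higher and 2, 5 and 9 lower.

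**Figure D2:**
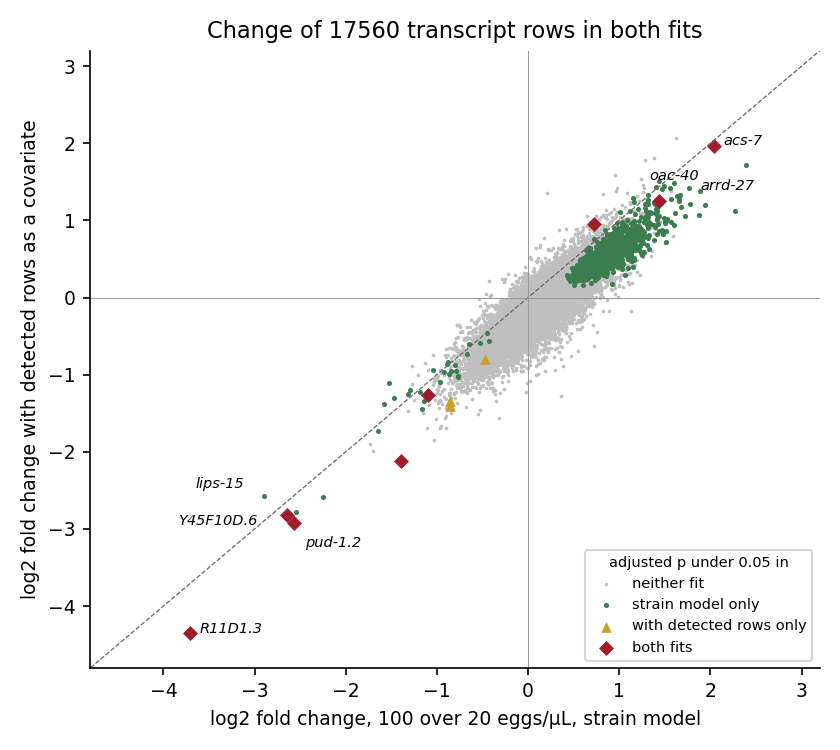
Log2 fold change of 100 over 20 eggs/µL for the rows tested, with strain as covariate (x axis) and with strain and detected rows as covariates (y axis), the dashed line marking equal values. The green cloud of rows that passed only with strain lies mostly below the line on the right, and *R11D1.3*, *Y45F10D.6*, *pud-1.2*, *acs-7* and *oac-40* are among the 8 that passed in both.

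The rows that were higher and the rows that were lower lay at different levels. The 878 higher rows had a median of 1.61 TPM over the animals, 842 of them (95.9%) averaged under 10 TPM, and 744 (84.7%) were listed at 0 in more animals than not. Over all rows tested the median was 7.80 TPM, and 55.5% averaged under 10 TPM. Pseudogenes made up 147 of the higher rows (16.7%, against 4.93% of all rows tested). The 33 lower rows had a median of 44.2 TPM, 5 of them averaged under 10 TPM, and none was annotated as a pseudogene. Under quantile normalization, which gives every animal the same distribution of values and moved the median change to 0.02, 22 rows were higher and 12 lower, and all 22 higher and 7 lower rows were among the 878 and 33.

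*R11D1.3* fell most. This protein-coding gene, known only by its sequence name, lies on chromosome V at 12711293 to 12712099 on the minus strand (WBcel235, the assembly also called ce11). In *fog-2*, the lowest, median and highest animals had 0, 0 and 74.4 TPM at 100 eggs/µL, against 0, 32.9 and 920 TPM at 20 eggs/µL. In N2 they had 0, 0 and 27.5 TPM at 100 eggs/µL, against 0, 56.2 and 245 TPM at 20 eggs/µL. It was listed at 0 in 17 of 24 *fog-2* and 19 of 23 N2 animals at 100 eggs/µL and in 5 of 20 and 2 of 16 at 20 eggs/µL. The ranges overlapped in both strains. The median at 20 eggs/µL lay within the range at 100 eggs/µL in *fog-2* and above that range in N2. The log2 fold change was -3.70 ± 0.51 (SE; limma, adjusted p = 1.29e-06), -4.35 ± 0.53 with detected rows as a covariate (adjusted p = 3.58e-08), -3.25 in *fog-2* alone (adjusted p = 0.0138) and -4.23 in N2 alone (adjusted p = 6.2e-04). It passed with strain alone under all 21 alternatives tried.

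*Y45F10D.6*, a second protein-coding gene with a sequence name only, fell in both strains as well. Its position is 13796211 to 13797909 on chromosome IV, where it overlaps *Y45F10D.7* on the opposite strand, so reads from the 2 genes may not be separable. At 100 eggs/µL the lowest, median and highest values were 0, 0 and 29.1 TPM in *fog-2*, against 0, 11.9 and 81.5 TPM at 20 eggs/µL. N2 animals had 0, 1.94 and 11.5 TPM at 100 eggs/µL, against 11, 18.6 and 58.2 TPM at 20 eggs/µL. In N2 only the lowest animal at 20 eggs/µL fell within the range of those at 100 eggs/µL, where 11 of 23 were listed at 0, while the *fog-2* groups overlapped. The change was -2.64 ± 0.36 (SE; limma, adjusted p = 1.11e-06), and -2.83 ± 0.39 with detected rows (adjusted p = 9.29e-07). *R11D1.3* and *Y45F10D.6* were the only 2 rows past the threshold in N2 alone.

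The predicted lipase *lips-15*, on chromosome II at 12604386 to 12607027, was lower at the highest density with strain alone. Its lowest, median and highest values in *fog-2* were 0, 0 and 431 TPM at 100 eggs/µL, against 0, 48.8 and 359 TPM at 20 eggs/µL. The N2 values were 0, 0 and 60.6 TPM at 100 eggs/µL, against 0, 42.5 and 1390 TPM at 20 eggs/µL. Most animals at 100 eggs/µL were at 0 in each strain (13 of 24 and 12 of 23), but the ranges overlapped. The change was -2.90 ± 0.58 (SE; limma, adjusted p = 0.00272), and -2.57 ± 0.63 with detected rows, which did not pass (adjusted p = 0.0722). It did not pass in N2 alone (-2.55, adjusted p = 0.741), nor without the animals of digit 1 (-2.73, adjusted p = 0.0719).

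The *pud* genes, named for proteins raised by low insulin-like signaling, lie close together on chromosome V. *pud-1.1* (2330429 to 2330930) and *pud-1.2* (2322038 to 2322566) are near-identical copies, so the split of reads between them is uncertain and their values are 1 measurement rather than 2. *pud-1.2* had a lowest, median and highest value of 0, 0 and 55.5 TPM in *fog-2* at 100 eggs/µL, against 0, 43 and 729 TPM at 20 eggs/µL. N2 animals had 0, 0 and 462 TPM at 100 eggs/µL, against 0, 4.82 and 10000 TPM at 20 eggs/µL. A single N2 animal at 20 eggs/µL held the highest value, and 8 of the 16 animals of that group were at 0. The changes were -2.57 ± 0.60 for *pud-1.2* and -2.55 ± 0.60 for *pud-1.1* (SE; limma, adjusted p = 0.00821 for each). With detected rows *pud-1.2* passed (-2.93, adjusted p = 0.041) and *pud-1.1* did not (-2.78, adjusted p = 0.056). The neighbors *pud-2.1* and *pud-2.2* were at -1.70 and -1.74 and did not pass (adjusted p = 0.111 and 0.104). Of 16 tested rows of *pud*, *pudl* and *pugs* genes, 3 were lower, against 0.188% of all rows, and 0 higher. These 3 include both *pud-1.1* and *pud-1.2*. With detected rows 2 were lower, against 0.0456% of all rows, the second being *pugs-9* (-1.1 ± 0.26 with strain alone, adjusted p = 0.00833). The *pugs-9* call with detected rows was lost in 14 of 22 alternatives. *pud-1.2* did not pass with strain alone without digit 1 (adjusted p = 0.0632) or digit 3 (-1.71, adjusted p = 0.284).

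**Figure D3:**
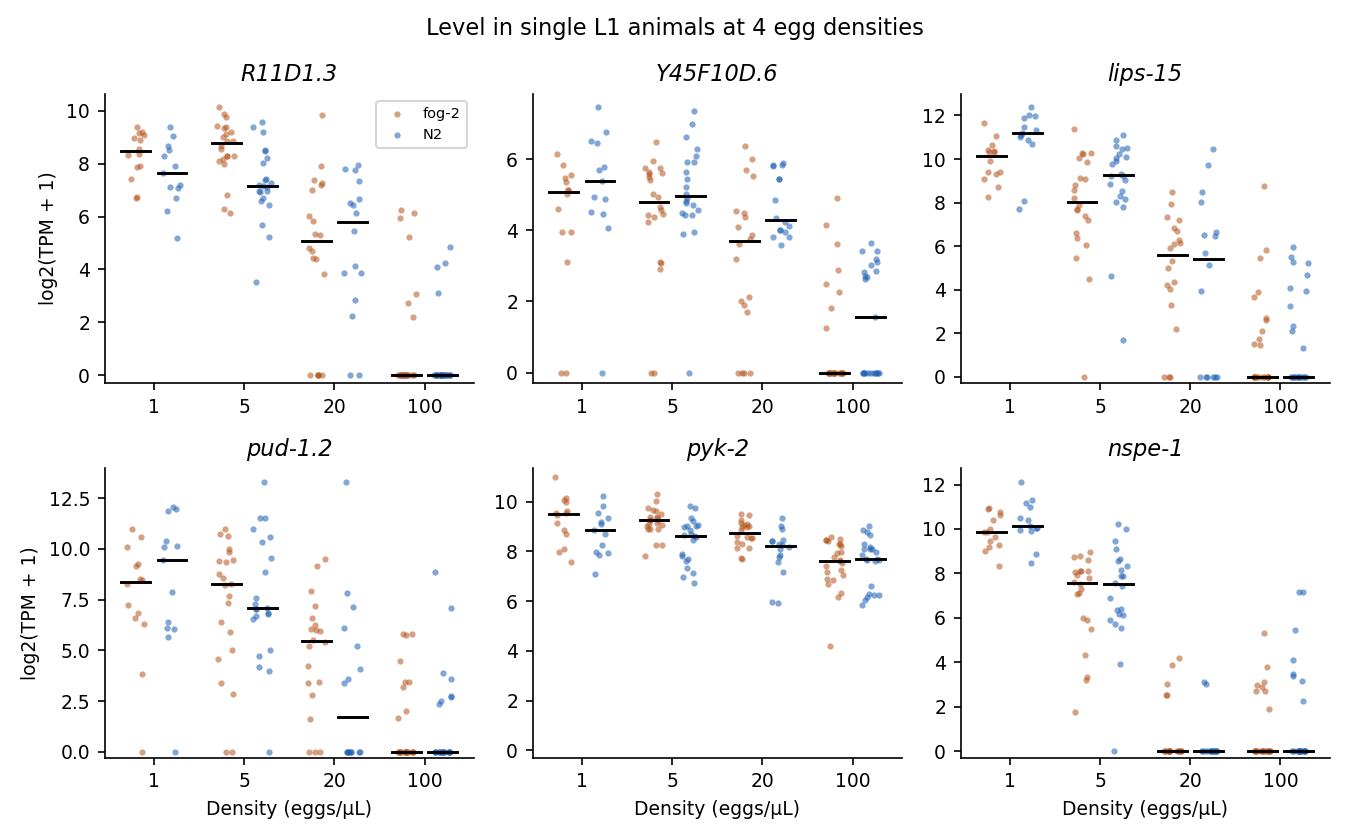
Log2(TPM + 1) of 6 genes in single L1s over the 4 densities, low to high, with *fog-2* in orange and N2 in blue and black lines at the medians. *R11D1.3* and *Y45F10D.6* reach their lowest medians at 100 eggs/µL, while *nspe-1* already has a median of 0 at 20 eggs/µL in both strains.

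Metabolic genes were few among the lower rows. *pyk-2*, a pyruvate kinase, had a lowest, median and highest value of 17.3, 198 and 383 TPM in *fog-2* at 100 eggs/µL, against 208, 429 and 718 TPM at 20 eggs/µL. In N2 the values were 56.1, 206 and 513 TPM at 100 eggs/µL, against 59.5, 298 and 648 TPM at 20 eggs/µL. The *fog-2* groups were largely apart and the N2 groups overlapped broadly. The change was -0.85 ± 0.20 (SE; limma, adjusted p = 0.00833), and -0.95 with detected rows (adjusted p = 0.0531). It was the 1 called row of 19 glycolysis rows, against 0.188% of all rows lower, and it overlaps the antisense RNA *ZK593.11*. Also lower were the glutathione S-transferase *gst-20* (-0.67, adjusted p = 0.0143), the ATP synthase subunit *atp-3* (-0.43, adjusted p = 0.0499), the proteasome subunit *rpn-1* (-0.77, adjusted p = 0.0449) and the nuclear hormone receptor *nhr-35* (-0.80, adjusted p = 0.0307). Each was the only lower member of its list, of 45, 53, 33 and 236 rows tested, against 0.188% of all rows. None of these 4 passed with detected rows. The calls were lost in 9, 16, 15 and 9 of 21 alternatives, given in the same order.

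The remaining lower rows named by size of change were *Y46G5A.36* (-2.25), the small nucleolar RNA *Y24D9A.10* inside the ribosomal protein gene *rpl-7A* (-1.65), the C-type lectin gene *clec-209* and its near-identical copy *F56A4.2* (-1.58 and -1.47), the Sp1-family transcription factor *sptf-2* (-1.53), the non-coding *F40E3.8* (-1.39) and *F56D6.9* (-1.31), which overlaps *oac-21* on its own strand (limma, adjusted p between 0.00821 and 0.0492). *F40E3.8* passed in both fits (-2.12 with detected rows, adjusted p = 0.0233), although its change was -2.43 in N2 and -0.49 in *fog-2*, and it overlaps *F40E3.5* on the opposite strand. It lost the call in 15 of 21 alternatives with strain alone and in 7 of 22 with detected rows. Lower only with detected rows as a covariate were *pxf-1*, a guanine nucleotide exchange factor (-1.34, adjusted p = 0.0124), *egl-4*, a cGMP-dependent protein kinase (-0.80, adjusted p = 0.0275), and *mpst-3*, a sulfurtransferase (-1.41, adjusted p = 0.0443). These calls were lost in 7, 8 and 15 of 22 alternatives.

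*acs-7* was the largest increase that passed both fits. It encodes an acyl-CoA synthetase that acts in attaching groups to ascarosides, and lies on chromosome II at 9292017 to 9294033, overlapping *C01G6.9* on the opposite strand. In *fog-2* the lowest, median and highest animals had 1.55, 20.6 and 66.1 TPM at 100 eggs/µL, against 0, 4.58 and 58.9 TPM at 20 eggs/µL. N2 animals had 0, 13.4 and 46 TPM at 100 eggs/µL, against 0, 1.34 and 32.8 TPM at 20 eggs/µL. It was at 1 TPM or more in 24 of 24 *fog-2* and 22 of 23 N2 animals at 100 eggs/µL, against 14 of 20 and 9 of 16 at 20 eggs/µL, and the ranges overlapped in their upper part. The change was 2.04 ± 0.35 (SE; limma, adjusted p = 2.82e-04), 1.96 ± 0.38 with detected rows (adjusted p = 0.00756), 1.84 in *fog-2* alone (adjusted p = 0.0301) and 2.27 in N2 alone (adjusted p = 0.0851). It no longer passed without the animals of digit 2 (1.79, adjusted p = 0.0735), and with detected rows not without digit 2 or digit 3 (adjusted p = 0.236 and 0.216).

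Among the 11 tested rows for ascaroside synthesis, 2 were higher, against 5.00% of all rows tested, and 0 lower. All 11 had a positive change, against 64.5% of all rows tested. The median was 0.62, against 0.15 over all rows. The second was *acox-3*, an acyl-CoA oxidase. Its lowest, median and highest values were 0, 31.5 and 193 TPM at 100 eggs/µL, against 0, 13.6 and 80 TPM at 20 eggs/µL in *fog-2*. In N2 they were 0, 36 and 280 TPM at 100 eggs/µL, against 0.78, 9.62 and 74.4 TPM at 20 eggs/µL. The medians were higher at 100 eggs/µL in both strains while the ranges overlapped, with a change of 1.19 ± 0.38 (SE; limma, adjusted p = 0.0454) and 0.81 with detected rows, which did not pass (adjusted p = 0.39). The strain-only call was lost in 14 of 21 alternatives. The thiolase *daf-22*, which carries out the last step of side-chain shortening, was at 0.84 (adjusted p = 0.151), and *maoc-1* at 0.58 (adjusted p = 0.0609). The list median with detected rows was 0.41, against -0.06 over all rows.

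The other 2 rows that were higher in both fits were *C31C9.7* and *oac-40*. *C31C9.7*, on chromosome II at 13669104 to 13669689, was the most abundant of the 3. Its lowest, median and highest values were 114, 221 and 544 TPM at 100 eggs/µL, against 46.8, 133 and 794 TPM at 20 eggs/µL in *fog-2*. In N2 the median and highest were 276 and 799 TPM at 100 eggs/µL, against 155 and 357 TPM at 20 eggs/µL. It was detected in every one of the 83 animals, and the shift was of the whole group with broad overlap (0.73 ± 0.18, adjusted p = 0.0112, and 0.95 with detected rows, adjusted p = 0.00925). It passed in neither fit without digit 1, 2 or 3 (0.56 to 0.87 with strain alone, adjusted p between 0.072 and 0.211). *oac-40*, an acyltransferase homolog on chromosome V that overlaps *oac-41* on the opposite strand, was near the detection limit instead. It had 0, 4.80 and 22.5 TPM in *fog-2* at 100 eggs/µL, with 2 of 24 animals at 0, against 0, 0 and 6.16 TPM and 17 of 20 at 0 at 20 eggs/µL. In N2, 15 of 23 animals at 100 eggs/µL and 15 of 16 at 20 eggs/µL were at 0. The change was 1.44 ± 0.23 (SE; limma, adjusted p = 1.1e-04). Taken alone, *fog-2* gave 2.18 (adjusted p = 4.59e-04) and N2 gave 0.57 (adjusted p = 0.741). With detected rows it did not pass without digit 1 or 2 (adjusted p = 0.115 and 0.266).

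**Figure D4:**
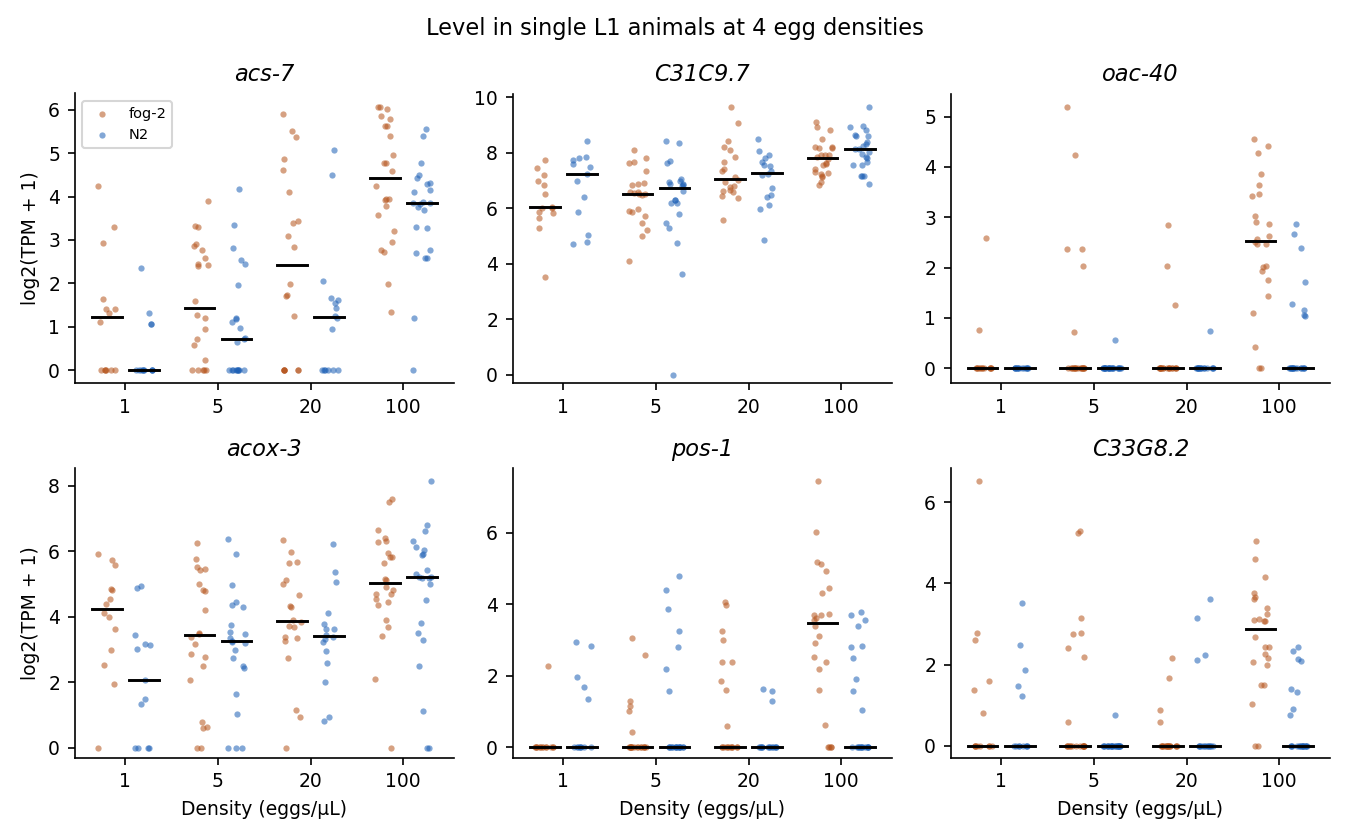
Log2(TPM + 1) of 6 genes in single L1s over the 4 densities, low to high, with *fog-2* in orange and N2 in blue and black lines at the medians. *acs-7* and *acox-3* have their highest medians at 100 eggs/µL in both strains, while *oac-40*, *pos-1* and *C33G8.2* leave a median of 0 only in *fog-2* at 100 eggs/µL.

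Besides *acs-7*, the largest changes with strain alone were in rows that did not pass with detected rows. *arrd-27*, annotated as an arrestin-family pseudogene, changed by 2.39 ± 0.55 (SE; limma, adjusted p = 0.00723), with 17.1, 370 and 2370 TPM at the lowest, median and highest in *fog-2* at 100 eggs/µL, against 0, 126 and 1050 TPM at 20 eggs/µL. Its N2 median was 5.93 TPM at 100 eggs/µL and 0 TPM at 20 eggs/µL. *T06C12.14* (2.27), *Y49F6C.6* (1.94), the pseudogene *M03D4.5* (1.89), *R07H5.16* (1.87), *C05B5.11* (1.78), *Y57A10C.11* (1.72), the pseudogene *F17C11.16* (1.67), the gap-junction innexin *inx-2* (1.67) and *F57B1.6* (1.66) followed (adjusted p between 3.38e-04 and 0.0204). With detected rows these changes and that of *arrd-27* were between 1.06 and 1.72 and their adjusted p between 0.0647 and 0.443.

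Most cuticle genes had positive changes. Among the tested collagen rows 8 were higher and 0 lower, near the 5.00% of all rows. A positive change was found in 109 of them and not in 16, against 64.5% positive over all rows, with a median of 0.46, against 0.15. Among them were *col-107* (0.72, adjusted p = 0.0159), *col-128* (0.72, adjusted p = 0.0255) and *col-76* (1.13, adjusted p = 0.0284). *col-107* was abundant, with a lowest, median and highest value of 815, 2070 and 9490 TPM in *fog-2* at 100 eggs/µL, against 347, 1060 and 6060 TPM at 20 eggs/µL. In N2 it had 550, 1530 and 6710 TPM at 100 eggs/µL, against 522, 1160 and 3090 TPM at 20 eggs/µL, so both strains had the higher median at 100 eggs/µL with wide overlap. The cuticlin and apical matrix list had 7 of 37 rows higher and 0 lower, median 0.51, with *cutl-6* (0.92) and the lipocalin-related *lpr-5* (1.09) and *lpr-7* (0.80). One of 18 molting rows, the fibrillin-like *fbn-1* (0.91), and 1 of 34 hedgehog-related rows, *grd-1* (0.80), were higher, shares near or under that of all rows. None of these rows passed with detected rows (limma), where the median was 0.37 over the collagens and 0.31 over the cuticlins, against -0.06 over all rows. In a fit of all 4 densities, the cuticlin median was 0.31 from 1 to 5 eggs/µL and -0.34 from 5 to 20 eggs/µL. Over all rows these medians were 0.13 and -0.05. Changes over the 3 steps, low to high, were 1.24, -1.34 and 0.78 for *lpr-7*. They were 0.94, -0.70 and 1.08 for *lpr-5*, and -0.13, -0.08 and 0.89 for *cutl-6*.

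Enzymes that modify foreign and lipid-soluble compounds were counted against the 5.00% of all rows that were higher. No glutathione S-transferase row of 45 was higher. Of 79 cytochrome P450 rows 7 were higher, among them the neighbors *cyp-13A11* (1.16, adjusted p = 0.00737) and *cyp-13A12* (1.60, adjusted p = 0.00821) and *cyp-35D1* (0.66, adjusted p = 0.0197). Of 65 UDP-glucuronosyltransferase rows 7 were higher, with *ugt-39* at 1.77, *ugt-25* at 1.31 and *ugt-38* at 1.02. *ugt-39* had 0, 37.3 and 134 TPM at the lowest, median and highest in *fog-2* at 100 eggs/µL, against 0, 11.6 and 108 TPM at 20 eggs/µL. Its N2 values were 0, 5.97 and 73.5 TPM at 100 eggs/µL, against 0, 0 and 13.6 TPM at 20 eggs/µL. The list medians of 0.36 and 0.33 became 0.12 and 0.07 with detected rows, and no member passed there.

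C-type lectins, secreted sugar-binding proteins of which many respond to microbes, had 14 of 151 rows with a *clec* name higher, against 5.00% of all rows, and 1 lower. Over all rows tested, 0.188% were lower. *clec-155* (1.35), *clec-6* (0.87) and *clec-226* (0.77) had the smallest adjusted p among the higher ones, and *clec-209* was the lower one, apart from its copy *F56A4.2*, which has no *clec* name. *clec-155* is annotated as a pseudogene. *clec-6* was at 0 in 9 of 24 *fog-2* animals at 100 eggs/µL, against 19 of 20 at 20 eggs/µL, and in 18 of 23 against 15 of 16 N2 animals. Of 57 *abu* and *pqn* rows, genes of glutamine- and asparagine-rich proteins, 4 were higher, with *pqn-29* at 1.28, *pqn-73* at 1.07 and *pqn-26* at 0.94, again against 5.00% of all rows. No row of either list passed with detected rows (limma), where the medians were 0.04 for the lectins and -0.04 for *abu* and *pqn*, against -0.06 over all rows. Others past the threshold with strain alone were the saposin-like *spp-30* (1.01), *fipr-13* (1.41), the nuclear hormone receptors *nhr-2* (0.71) and *nhr-62* (1.39), the carnitine palmitoyltransferase *cpt-4* (1.24), the lipase *fil-2* (1.33) and the neuronal Ras exchange factor *rgef-1* (1.25). Among the genes named, *col-107*, *cutl-6*, *lpr-7*, *fbn-1*, *ugt-25*, *pqn-26*, *pie-1*, *rgef-1*, *sptf-2*, *pxf-1*, *mpst-3*, *aakg-4*, *pcbd-1*, *mrpl-12* and *F35E8.13* also overlap a protein-coding gene on the opposite strand, and reads of such pairs may not be separable.

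**Figure D5:**
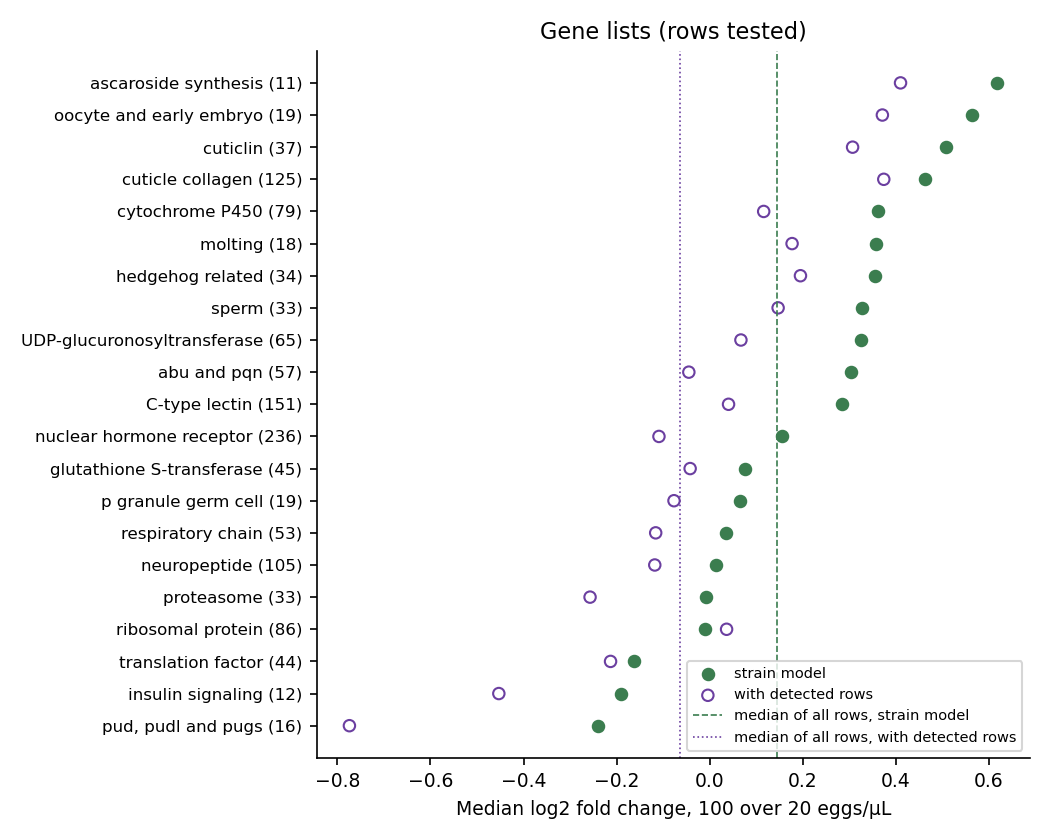
Median log2 fold change of 100 over 20 eggs/µL for 21 gene lists, with the number of rows tested in brackets, with strain alone (filled) and with detected rows as a covariate (open), and the medians over all rows (vertical lines). Ascaroside synthesis, early embryo, cuticlin and collagen lists lie to the right of both lines, and the *pud*, *pudl* and *pugs* list lies farthest to the left.

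Some transcripts of oocytes and early embryos were higher at 100 eggs/µL. Such transcripts are loaded by the mother or made in the first cell divisions and are mostly gone in a hatched larva. Of 19 rows, 5 were higher and 0 lower, against 5.00% higher over all rows, and all 19 changes were positive, against 64.5%. The *fog-2* median was 0.82, against 0.22 over all rows, and the N2 median 0.17, against 0.09 over all rows. The zinc-finger protein gene *pos-1* had a lowest, median and highest value of 0, 10.1 and 172 TPM in *fog-2* at 100 eggs/µL, against 0, 0 and 15.7 TPM at 20 eggs/µL (1.46 ± 0.35, adjusted p = 0.00821). In N2 its median was 0 TPM at both densities. *pie-1* (0.99), *puf-5* (0.88), *oma-2* (1.01) and *zif-1* (0.89) passed as well, as did the P granule gene *meg-1* (0.92) and the endoderm factor *med-1* (1.24) of other lists. None of them passed with detected rows, where the list median was 0.37. The summed level of the list ranged over 17.8 to 498 TPM in *fog-2* at 100 eggs/µL, against 20.3 to 94.8 TPM at 20 eggs/µL, and over 4.61 to 181 TPM in N2 at 100 eggs/µL, against 2.24 to 52.7 TPM at 20 eggs/µL. The part of these transcripts in the other changes was not tested.

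Few markers of larval tissues passed. In the lists for body wall muscle (9 rows), pharynx (8), intestine (10) and hypodermis (8) no row passed. In the neuronal list *rgef-1* was the 1 called row of 10, higher, against 5.00% of all rows higher. In the excretory cell list it was *lips-15*, also of 10, lower, against 0.188% of all rows lower. Of the 10 excretory cell rows, 6 had a positive change, and the list median was 0.15, as over all rows. Whole animals were measured, so fewer cells of a type and less RNA per cell cannot be told apart. Yolk protein genes, expressed by adults, did not reach the filter. Their summed level had a median of 0.795 TPM in *fog-2* at 100 eggs/µL, against 0.085 TPM at 20 eggs/µL, and of 2.94 TPM in N2 at 100 eggs/µL, against 0.26 TPM at 20 eggs/µL. These medians lay higher at 100 eggs/µL in both strains, as did those of the oocyte and early embryo list, with ranges that began at 0 in every group. No row passed among 33 sperm, 86 ribosomal protein, 44 translation factor, 18 mitochondrial genome, 77 histone, 105 neuropeptide, 27 insulin-like, 12 insulin signaling or 7 dauer TGF-beta rows (limma). Ribosomal proteins had a median of 0.26 in *fog-2* and -0.35 in N2.

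Within strains, the counts were unequal. In *fog-2* alone 735 rows were higher at 100 eggs/µL (4.19%) and 66 lower (0.376%), while in N2 alone 0 were higher (0%) and 2 lower (0.0114%), with 1148 N2 rows at an unadjusted p under 0.05 (limma). Of the 735 rows, 647 (88.0%) had a positive change in N2, against 57.9% of all rows, and of the 66 lower rows 31 (47.0%) had a negative change in N2, against 42.0% of all rows. These counts do not show that the strains differ. The difference itself was tested as an interaction of strain and density, and 1 row passed, 0.00569% of those tested (limma, 1560 rows at an unadjusted p under 0.05). That row was *C33G8.2*, on chromosome V at 7009761 to 7012311. In *fog-2* it had a lowest, median and highest value of 0, 6.37 and 32.2 TPM at 100 eggs/µL, against 0, 0 and 3.46 TPM at 20 eggs/µL. In N2 it had 0, 0 and 4.39 TPM at 100 eggs/µL, against 0, 0 and 11.2 TPM at 20 eggs/µL. It was above 0 in 22 of 24 *fog-2* animals at 100 eggs/µL, against 4 of 20 at 20 eggs/µL, with changes of 2.40 in *fog-2* and -0.11 in N2 (difference N2 minus *fog-2* -2.51, adjusted p = 0.0209). With detected rows no row passed the interaction test (limma, 1369 at an unadjusted p under 0.05).

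The last step was then set beside the earlier steps of the series in a fit of all animals of the series, from which the step values below come. The first step, 5 against 1 egg/µL, is also 5-fold and shares no animals with the last, so the 2 were tested against each other. The middle step, 20 against 5 eggs/µL, shares the 20 eggs/µL animals and is given as values only. In the first step 132 rows were higher (0.752%) and 27 lower (0.154%), and in the middle step 4 were higher (0.0228%) and 88 lower (0.501%). Last and first step differed in 17 rows, 5 with a higher change in the last step (0.0285%) and 12 with a lower one (0.0683%).

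*R11D1.3* and *Y45F10D.6* were 2 of the 12. The changes of *R11D1.3* were -0.05 in the first step, -3.17 in the middle step and -3.74 in the last, and last minus first was -3.69 ± 0.62 (SE; limma, adjusted p = 1.83e-04). Those of *Y45F10D.6* were 0.06, -0.82 and -2.68, with a difference of -2.74 ± 0.54 (adjusted p = 0.00769), which did not pass without digit 2 (adjusted p = 0.283). Medians of *R11D1.3* over 1, 5, 20 and 100 eggs/µL were 352, 434, 32.9 and 0 TPM in *fog-2* and 199, 143, 56.2 and 0 TPM in N2. Neither gene passed this contrast in N2 alone (adjusted p = 0.0802 and 0.142).

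The nematode-specific peptide gene *nspe-1*, which lies near *lips-15* on chromosome II, had the opposite order of steps. Its medians over 1, 5, 20 and 100 eggs/µL were 931, 188, 0 and 0 TPM in *fog-2* and 1140, 181, 0 and 0 TPM in N2. The changes were -3.14 in the first step, -6.36 in the middle step and 0.72 in the last (limma, adjusted p = 0.306), and last minus first was 3.86 (adjusted p = 6.44e-06). The gene was listed at 0 in 16 of 24 *fog-2* animals at 100 eggs/µL and in 15 of 20 at 20 eggs/µL, which left little room for a lower value. *nspe-2* and *lips-16* had a median of 0 TPM at both densities in both strains and did not reach the filter. *lips-15* had negative changes at each step, -2.03, -3.73 and -2.88, with medians of 1120, 264, 48.8 and 0 TPM over the 4 densities in *fog-2* and 2370, 620, 42.5 and 0 TPM in N2. The middle and last changes passed (adjusted p = 3.35e-07 and 1.37e-04), the first did not (adjusted p = 0.0572), and last minus first did not pass (-0.85, adjusted p = 0.727).

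The other rows with a higher change in the last step were the insulin-like peptide *ins-6* (2.72), the mitochondrial ribosomal protein *mrpl-12* (2.12), the collagen *col-144* (1.76) and the secreted Notch ligand *osm-11* (1.07). Of these only *mrpl-12* passed in the last step itself (1.05, adjusted p = 0.0282). *ins-6* was lower in the first step (-2.50, adjusted p = 7.27e-04) and stood at 0.22 in the last, where its median was 0 TPM at 5, 20 and 100 eggs/µL in both strains, so a further fall had little room to be seen. These 4 calls were lost in 11 of 17 alternatives for *ins-6*, 6 of 17 for *mrpl-12*, 10 of 18 for *col-144* and 7 of 18 for *osm-11*. The other 10 with a lower change had a positive first step, among them the infection response gene *irg-2* (2.85), the metal-responsive *numr-1* (2.79), *nspe-7* (2.89), the AMP kinase subunit *aakg-4* (0.73) and the trafficking GTPase *rab-11.1* (0.74). The last-step changes of these 5 ran from -0.87 to 0.01 and did not pass. Of the other 5, *F47E1.4* passed in the last step of this fit (-0.998, adjusted p = 0.0405), with N2 medians of 1.84 TPM at 100 eggs/µL and 10.7 TPM at 20 eggs/µL, and *dao-6*, *W02D7.11*, *pcbd-1* and *F19B10.13* did not (-0.64 to -0.15).

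The study named a set of density-regulated genes from 100 against 1 egg/µL, a wider comparison than the last step. In the fit of the 83 animals with strain as covariate, those that did not pass were *nspe-1* (0.69, adjusted p = 0.336), *fat-2*, *gpa-12*, *col-159*, *col-160*, *ahcy-1*, *sams-1*, *dmd-7*, *cah-4*, *F35E8.13*, *sgk-1*, *ins-26* and *daf-5*. The G protein subunit *gpa-12* was close to the threshold, with a lowest, median and highest value of 0, 7.70 and 27.2 TPM in *fog-2* at 100 eggs/µL, against 0, 18.8 and 65.7 TPM at 20 eggs/µL. Its N2 values were 0, 4.73 and 35 TPM at 100 eggs/µL, against 1.54, 8 and 21.6 TPM at 20 eggs/µL. The medians were lower at 100 eggs/µL in both strains, and the change was -1.01 ± 0.33 (SE; limma, adjusted p = 0.0576). It passed in the fit of all animals of the series (-0.997, adjusted p = 0.0317), 1 of 4 among 21 alternatives that called it. In *fog-2* alone *col-159* (1.25, adjusted p = 0.0109), *col-160* (0.77, adjusted p = 0.0293) and *fat-2* (-0.74, adjusted p = 0.0444) passed, but none of the 3 passed the test of a difference between strains (adjusted p between 0.577 and 0.864). *col-159* and *col-160* overlap on the same strand, so their reads may not be separable. With both strains the desaturase *fat-2* was at -0.57 (adjusted p = 0.138), the methionine cycle enzymes *sams-1* and *ahcy-1* at -0.23 and -0.31, and *ins-26* at -0.15. The list for methionine and phosphatidylcholine metabolism had a median of 0.05 over 20 rows, and no member passed.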

How the data were processed

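Single L1s were sequenced from Smart-Seq2 libraries. The authors deposited TPM values estimated with RSEM after taking out rRNA reads and PCR duplicates. Bowtie and ce11 are named in the submitters' processing notes, with tool versions not given in the sources used here. TPM is relative within an animal and carries no read depth, so a value of 0 means not detected. Of the columns, 146 were matched to 1 animal and 8 to strain and density only, the latter all at 1 egg/µL. Symbols came from RefSeq and Ensembl, positions from Ensembl WBcel235 (590 rows had none). Counting was not stated to use strand.

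Fits used R 4.3.3 with limma 3.58.1, and permutation tests scipy 1.17.1. The fit was also run on simulated data, made by shuffling values or whole animals within strain. Shuffling breaks the link between density and detected rows, so those runs cannot show how that link affects the calls. Named are up to 12 rows per direction by size of change, up to 3 called members of each of 50 gene lists, genes the study names, and rows called in the other tests. Of the genes in the study's text, the cytochrome P450 *cyp34-A4* was not followed by name. Members and lists were chosen with earlier results of these data known. The alternatives changed the pseudocount, filter, normalization, animals, name digit, gene sums, variance model and threshold.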

Additional observations from a re-analysis of the deposited data

Results flagged for a closer look

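The change of *C33G8.2* differed between the strains, by -2.51 for N2 minus *fog-2* on the log2 scale (interaction term in limma, adjusted p = 0.0209 over all rows tested). In *fog-2* it was 2.40, against -0.11 for N2 animals. The difference did not pass with detected rows as a covariate, or under 10 of the 17 alternatives tried, and the number of detected rows also differed between the densities in *fog-2*. Its part in the result was not tested.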

How the results depend on the processing

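*R11D1.3* and *Y45F10D.6* passed with strain alone under all 21 alternatives, with log2 changes of -5.59 to -1.92 and -4.21 to -1.15. The counts moved as follows, with rows higher and lower given in that order, 878 and 33 with strain alone and 3 and 8 with detected rows. A pseudocount of 0.1 TPM gave 7 higher with detected rows and 2 strain differences, and one of 10 TPM gave 222 and 20 with strain alone, 14 lower with detected rows and 0 strain differences. With no filter, 5 rows were lower with detected rows. Rows averaging at least 10 TPM gave 8 and 7, 24 lower with detected rows and 0 strain differences. Quantile normalization gave 22 and 12, and 5 lower with detected rows. Means by the digit after the density in the animals' names gave 0 and 3 with strain alone, 0 and 0 with detected rows and 0 strain differences. An estimated correlation between animals of 1 digit (0.013) gave 5 lower with detected rows. Without digit 1 the counts were 7 and 2, then 1 and 2, with 0 strain differences and 6 step differences. Without digit 2 they were 31 and 5, then 1 higher, with 6 step differences. Without digit 3 they were 291 and 9, then 1 and 3, with 0 strain differences and 48 step differences. In *fog-2* alone 66 were lower, 3 with detected rows, with 106 step differences. In N2 alone the counts were 0 and 2, then 0 and 2, with 0 step differences. With no variance trend 10 step differences passed, and animal weights gave 17 lower with detected rows and 0 strain differences. The spread of the animals of all densities gave 92 and 84 with detected rows. A threshold of 0.01 gave 188 and 8, then 2 lower, 0 strain differences and 3 step differences. Smaller sets of animals have fewer samples, and otherwise the cause was not tested.

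Chosen after seeing the data, leaving out the 2 N2 animals at 100 eggs/µL least like their group gave 0 strain differences, since the planned limit left out none. Counting detected rows above 0 TPM gave 4 lower with that covariate. At 10 TPM or more the *fog-2* difference in detected rows was 456.5 (adjusted p = 0.061), and without digit 1 the N2 difference was -81.5.

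The digits are no stated batch. For each digit, the deviations of its mean from the mean of its group were correlated between the densities within strain. These correlations were -0.0462 to 0.131, so the digits were not taken to pair the animals. A replicate block on the digit gave 799 and 33, then 5 and 13, with 5 strain differences and 67 step differences. Sign changes touched values that had not passed, with *F35E8.13* at -0.45 without digit 1 and -0.43 in N2 alone, *ins-26* at 0.31 without digit 3 and 0.74 in *fog-2* alone, *sams-1* at 0.048 and *cah-4* at 0.021 in *fog-2* alone and *col-160* at -0.36 in N2 alone, and the called *C33G8.2* was at -0.11 in N2 alone.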

Other observations

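Genes with *sr* and *str* names, mostly chemoreceptor genes, were the most frequent family among the higher rows. The group was chosen after its values were seen and by name alone, so it can hold genes that are not chemoreceptors. Chemoreceptor genes encode receptors with which worm sensory neurons detect chemicals. Of 965 tested rows, 229 were higher at 100 eggs/µL with strain alone (23.7%, against 5.00% of all rows tested) and 0 lower, with a median of 0.49. With detected rows as a covariate 0 rows passed in either direction and the median was 0.23, against -0.06 over all rows. Of 42 rows of the *oac* acyltransferase homologs, 17 were higher, and 1 of them, *oac-40*, passed with detected rows. Of 36 *gtnt* rows 10 were higher, and of 263 F-box rows of the *fbxa*, *fbxb* and *fbxc* families 22 were. Higher rows of the strain-only fit were mostly of low level, and some could pass the filter through the 100 eggs/µL animals alone. The family shares were set against rows of all levels, and a comparison with rows of like level was not made.

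By position, chromosome V held 345 of the 878 higher rows, 8.35% of its 4132 tested rows, against 5.00% of all rows tested. The X chromosome held 68, 2.84% of its 2394. The shares were 3.55%, 5.13%, 3% and 4.73% on chromosomes I, II, III and IV. These counts use the fit with strain alone, in which higher rows were mostly of low level.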
